A study of Mus musculus with 474 samples.

Results

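The levels of 10 genes were followed across the muscle RNA of an outbred mouse population, of which 9 mark blood vessel endothelium (Pecam1, Cdh5, Kdr, Flt1, Tek, Vwf, Cldn5, Esam and Egfl7) and 1, Vegfa, encodes the main growth factor for that endothelium. They were chosen by name, and all 10 were among the 20612 genes of the deposited tables and passed the filter on low counts, as did 18823 genes in all. The RNA came from skeletal muscle, the gastrocnemius by the study's methods, of Diversity Outbred mice with 1 library per mouse. This stock descends from a set of inbred founder strains, and each mouse carries its own mosaic of their genomes. Every animal received the high-fat, high-sugar diet that the labels give as 45% fat, so no group on another diet was compared, and age at collection is not in the labels. The samples' labels give the sex and a number (17, 18, 19, 21 or 23) that was taken to be the outbred generation, although 17 and 23 are not among the generations listed in the study's methods. In that order of generations there were 48, 45, 49, 46 and 47 female libraries and 46, 48, 50, 47 and 48 male libraries, and a value given for a sex below is over all 5 of its groups.

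VEGF-A is secreted by muscle fibres and other cells and acts on receptors in the membrane of endothelial cells. KDR (VEGFR2) carries most of the signal for endothelial growth and permeability, whereas FLT1 (VEGFR1) binds the ligand tightly, signals weakly and can act as a decoy. In muscle, capillaries are denser around oxidative fibres than around fast glycolytic fibres, and slow oxidative fibres express the myosin heavy chain Myh7, which is why Myh7 was set beside the 10 genes.

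The sequences just before the start sites of the ligand gene, its receptor genes and the angiopoietin receptor gene Tek are shown because the levels of these genes are what the comparisons below turn on. They are the 250 bases upstream of a RefSeq start site in GRCm38.p6, for Vegfa the one nearest the annotated gene start, at chr17:46032378-46032627 on the minus strand for Vegfa, chr5:75978456-75978705 on the minus strand for Kdr, chr5:147726012-147726261 on the minus strand for Flt1 and chr4:94739039-94739288 on the plus strand for Tek. Capitals mark GGAAG on either strand. It holds GGAA, the core that ETS family factors, which include regulators of endothelial genes, can bind. GGAA without the following G was not marked or counted.
Vegfa: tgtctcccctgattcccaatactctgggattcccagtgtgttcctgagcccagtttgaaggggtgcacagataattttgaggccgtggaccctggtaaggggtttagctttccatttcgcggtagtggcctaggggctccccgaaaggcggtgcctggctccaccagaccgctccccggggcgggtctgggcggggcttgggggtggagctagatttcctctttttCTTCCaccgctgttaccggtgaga
Kdr: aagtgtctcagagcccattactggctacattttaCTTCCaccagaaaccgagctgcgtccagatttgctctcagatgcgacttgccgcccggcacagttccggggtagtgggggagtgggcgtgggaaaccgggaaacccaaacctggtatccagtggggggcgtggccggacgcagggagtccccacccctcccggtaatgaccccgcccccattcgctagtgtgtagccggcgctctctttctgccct
Flt1: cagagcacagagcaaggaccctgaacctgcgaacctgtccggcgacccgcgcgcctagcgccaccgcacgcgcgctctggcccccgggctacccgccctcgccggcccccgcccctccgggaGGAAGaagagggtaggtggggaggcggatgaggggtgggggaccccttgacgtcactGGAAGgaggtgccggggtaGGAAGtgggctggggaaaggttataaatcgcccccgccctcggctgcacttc
Tek: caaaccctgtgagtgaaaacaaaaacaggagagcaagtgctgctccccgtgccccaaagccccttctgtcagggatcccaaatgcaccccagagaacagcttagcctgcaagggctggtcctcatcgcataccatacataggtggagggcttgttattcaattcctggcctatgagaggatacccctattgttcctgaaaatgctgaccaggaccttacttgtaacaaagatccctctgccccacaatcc
GGAAG was found 1 time in the Vegfa window, 1 time in that of Kdr, 3 times in that of Flt1 and 0 times in that of Tek. The Tek window does hold the shorter GGAA on the opposite strand, as TTCC. Among all 32851 promoter windows of the same length, 64.1% held GGAAG on either strand, so its presence does not set these windows apart. The GC box GGGCGG, searched on either strand and held by 32.7% of windows, was found 2 times for Vegfa, 2 times for Kdr and 3 times for Flt1 but not for Tek, and the TATAA motif, on either strand and held by 22.8%, was found only in the Flt1 window of these 4. The hypoxia response core ACGTG, held by 16.6%, was in none of the 4 windows, which says only that these letters are not in these bases. Vegfa has another RefSeq start site within the gene, whose upstream window (chr17:46025164-46025413, minus strand) held this core 1 time. RefSeq windows were used for 6 of the 10 genes, and Pecam1, Cdh5, Vwf and Esam had none.

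Total counts ran from 35.9 M to 165.7 M per library with a median of 79.3 M (M, mega-counts). At this depth the lowest count of any of the 10 genes in any library was 127, for Cldn5, so that counting error was small beside the spread between animals. In 5 libraries, either the female-specific Xist RNA or the Y-linked Ddx3y RNA went against the sex label. DO153 and DO347, labelled female, lacked Xist (under 10 CPM) and had no Ddx3y count, and DO308, labelled male, had neither RNA. DO193, labelled male, had Xist beside a high Ddx3y level, and DO048, labelled female, had Xist and a low Ddx3y level (0.133 CPM). In addition, 8 libraries had more than 300 genes beyond 4 SD of their mean score, against 5 genes in the median library. One further female library, DO497 of generation 23, was the highest of all in Vegfa, Kdr and Flt1 and in the summed hemoglobin and Alas2 level (2762 CPM, counts per mega-count of the TMM-scaled total, against a median of 139.98 CPM). Where the call of one of the 10 genes in a count fit, or of its correlation with Vegfa or Myh7, changed without one of these sets of libraries, both values are given. Muscle markers fitted the tissue label, as 12 fast fibre genes summed to a median of 165389 CPM in females and 166238 CPM in males, and no gene of any cell type list that was in the tables had a median of 0. The 9 endothelial genes summed to 340.7 CPM in females and 358.8 CPM in males (medians), and the mean of their standardised scores had r = 0.81 with that of 25 other endothelial markers, a description of shared variation across the same libraries. In RNA from whole muscle, fewer endothelial cells and less of a transcript per endothelial cell cannot be told apart.

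Vegfa was by far the most abundant of the 10 transcripts per length. Its level ran from 122 CPM in the lowest library through a median of 221.7 CPM to 462.8 CPM in the highest, and the median corresponded to 51.7 CPM per kb of annotated exon sequence. The slow myosin gene Myh7 had 135 CPM per kb and a 21.5-fold range between its lowest library (206.4 CPM) and its highest (4434 CPM). Among the endothelial genes, Cdh5, which encodes VE-cadherin of the adherens junction, had the highest level per length (15.5 CPM per kb), followed by the adhesion molecule gene Pecam1 (8.91) and the junction gene Esam (6.62). From Flt1 (5.63 CPM per kb) through Tek (5.32), Kdr (5.19) and Egfl7 (4.77) to Cldn5 (4.39), each median lay within 1 SD of single libraries of the next, so neighbours in this order did not differ beyond their spread over libraries. Vwf, the von Willebrand factor gene, was lowest at 2.29 CPM per kb.

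The genes also differed in how much they varied between animals. Cldn5, which encodes the tight junction protein claudin-5, ranged 7.20-fold, from 2.09 CPM through a median of 6.22 CPM to 15.0 CPM. Kdr ranged 4.57-fold (22.98, 46.9 and 105.01 CPM), Egfl7 3.91-fold (7.89, 17.1 and 30.8 CPM), Vwf 3.88-fold (19.8, 36.8 and 77.0 CPM) and Vegfa 3.78-fold. Tek, the receptor for angiopoietins, ranged least, 1.92-fold (18.5, 25.1 and 35.4 CPM), and Cdh5 (44.8, 65.2 and 99.3 CPM), Esam (12.05, 18.99 and 27.8 CPM), Pecam1 (36.98, 55.5 and 93.8 CPM) and Flt1 (44.8, 76.1 and 150 CPM) lay between. After sex and generation were removed, the SD of the score was 0.35 for Cldn5, 0.31 for Kdr, 0.29 for Vegfa, 0.27 for Vwf and 0.25 for Egfl7, above the median gene (0.20), and 0.15 to 0.19 for Tek, Cdh5, Esam, Pecam1 and Flt1. Thus the 5 more variable genes included the growth receptor Kdr but not the second VEGF receptor Flt1. Without DO497 the highest library would have had 80.7 CPM for Kdr, 111.1 CPM for Flt1 and 414.04 CPM for Vegfa.

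**Figure D1:**
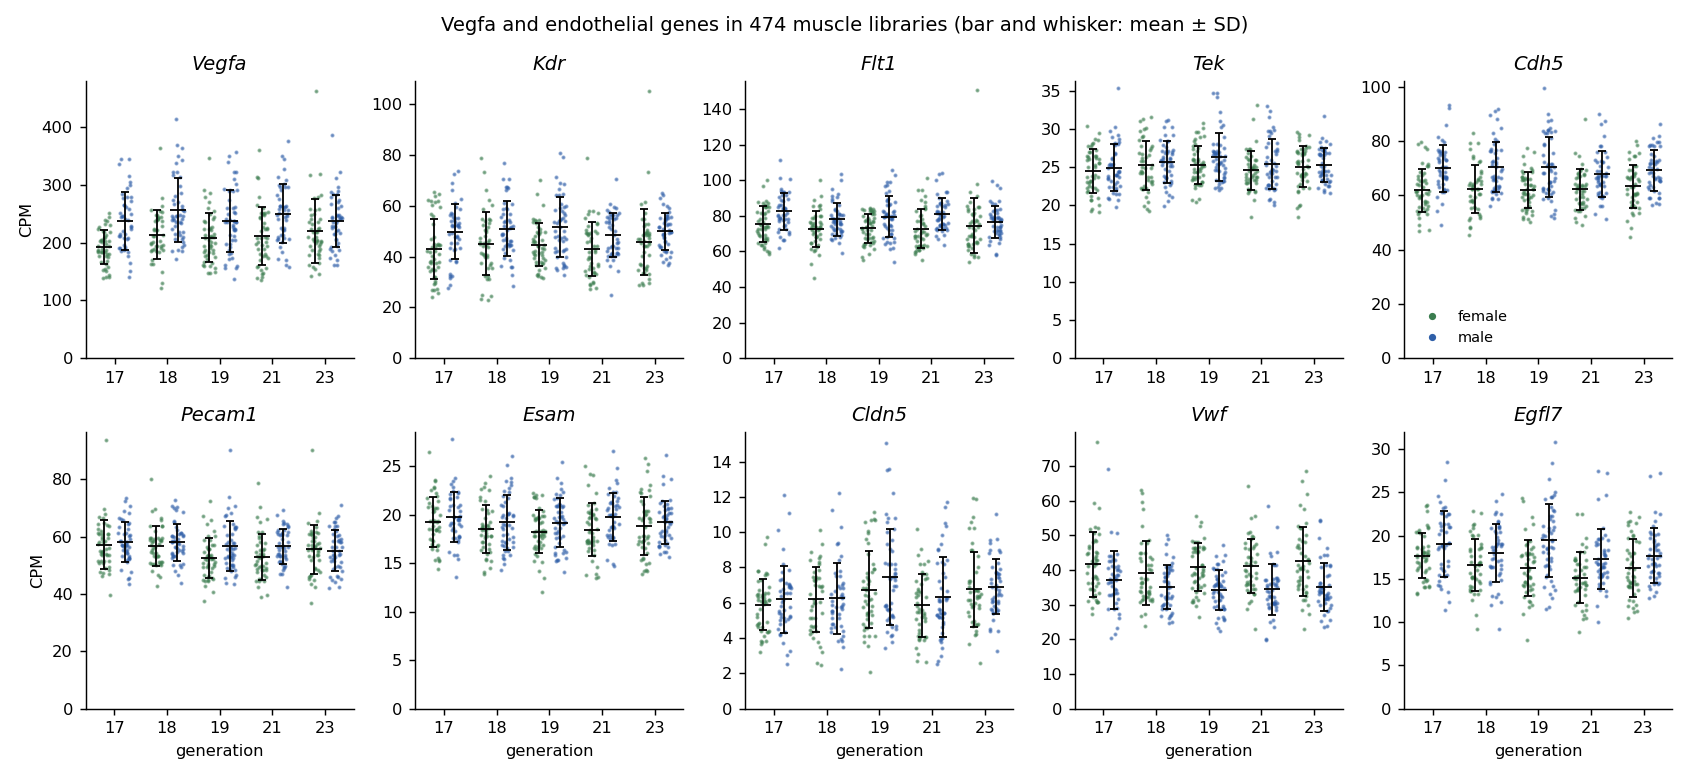
Level of each of the 10 genes in CPM on the TMM-scaled total (y axes start at 0) by generation and sex, with 1 point per library, green for female and blue for male, and the mean ± SD of each group as bar and whisker. The female and male points overlapped for every gene, and the highest Vegfa point, in females of generation 23, is DO497.

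Sex was the comparison with the widest effect on these genes. Of the 10 genes, 8 were higher and 1 (Vwf) was lower in males, and Cldn5 did not pass the test (edgeR quasi-likelihood test with generation as covariate, adjusted p under 0.05). This count stands beside 55% of all 18823 genes called, with 24.4% higher and 30.6% lower in males, so a call for sex alone is no particular mark of these genes. The median log2 difference over all genes was -0.01. Of all calls, 44.3% were higher in males, against 30.8% with libraries scaled by total count alone. With that scaling 6 of the 10 genes were called, 5 of them (Vegfa, Kdr, Flt1, Cdh5 and Egfl7) higher and Vwf lower, beside 57.4% of all genes called. The fold sizes were modest and the ranges of the sexes overlapped for all 10 genes.

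The ligand gene Vegfa (ENSMUSG00000023951, chromosome 17, 46016993 to 46032369, minus strand) ran in females from 122 CPM through a median of 203.2 CPM to 462.8 CPM and in males from 136 CPM through 240 CPM to 414.04 CPM. The mean was 209.1 ± 44.9 CPM (SD over all female libraries) in females and 243.8 ± 51.3 CPM (SD over all male libraries) in males. Males were higher by a log2 difference of 0.22 (SE 0.03, edgeR adjusted p = 4.86e-14). Within single generations the difference was 0.11 to 0.31 and passed the test in 4 of 5, the exception being generation 23 (0.11, adjusted p = 0.2), and within blocks of consecutive library numbers it was 0.14 to 0.35 and passed in 3 of 5. These smaller fits called 23.3% to 27.6% of all genes in single generations and 19.4% to 28.6% in single blocks. A variation of the sex difference between generations was not called for any of the 10 genes by edgeR (0 of 10, 0 of them at an unadjusted p under 0.05; 0.531% of all genes called).

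Among the receptors, Kdr (ENSMUSG00000062960, chromosome 5, 75932827 to 75978458, minus strand) ran from 22.98 through 44.03 to 105.01 CPM in females and from 24.8 through 50.3 to 80.7 CPM in males. Its log2 difference was 0.18 (SE 0.03, edgeR adjusted p = 1.84e-08), and it was 0.12 to 0.33 within blocks, passing in 3 of 5 generations and 1 of 5 blocks. Flt1 (ENSMUSG00000029648, chromosome 5, 147561604 to 147726011, minus strand) ran from 44.8 through 73.1 to 150 CPM in females and from 54.2 through 78.7 to 111.1 CPM in males. It was higher in males by 0.11 (SE 0.02, edgeR adjusted p = 7.98e-09), passing in 3 of 5 generations and in 3 of 5 blocks (0.06 to 0.14). In both receptors the middle of the male distribution lay above that of the females while the highest library was the female DO497. Tek (ENSMUSG00000006386, chromosome 4, 94739289 to 94874976, plus strand) ran from 18.5 through 24.9 to 33.2 CPM in females and from 19.8 through 25.3 to 35.4 CPM in males, and its difference of 0.03 (SE 0.01, edgeR adjusted p = 0.0421) was the smallest of those called. The Tek call was lost with libraries scaled by total count alone, where the difference was 0.0013 (adjusted p = 0.952). It was also lost under DESeq2 (0.0552), with DESeq2 size factors in edgeR (0.0554), without the filter on low counts (0.0534), with library block as covariate (0.068), without the 5 libraries that went against their sex label (0.0568) and in each of the 5 generations and 5 blocks alone (blocks -0.02 to 0.05).

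Of the junction genes, Cdh5, Pecam1 and Esam were higher in males and Cldn5 did not pass. Cdh5 (ENSMUSG00000031871, chromosome 8, 104101625 to 104144511, plus strand) ran from 44.8 through 62.2 to 87.9 CPM in females and from 49.04 through 68.2 to 99.3 CPM in males. Its log2 difference of 0.16 (SE 0.02, edgeR adjusted p = 2.57e-18) had the smallest p of the genes higher in males, and it passed the test in each of the 5 generations and each of the 5 library blocks taken alone (blocks 0.13 to 0.22). Pecam1 (ENSMUSG00000020717, chromosome 11, 106654217 to 106750628, minus strand) had medians of 54.2 CPM in females and 56.5 CPM in males and a difference of 0.05 (SE 0.02, edgeR adjusted p = 0.00707). Esam (ENSMUSG00000001946, chromosome 9, 37528078 to 37538319, plus strand) had medians of 18.4 and 19.4 CPM and a difference of 0.06 (SE 0.02, edgeR adjusted p = 0.00346). Both of these small differences were lost when libraries were scaled by their total count alone, at 0.02 (adjusted p = 0.476) for Pecam1 and 0.03 (adjusted p = 0.234) for Esam, and neither passed in any single block (0.02 to 0.08 and 0.03 to 0.09). Within single generations Pecam1 passed in 2 of 5 (-0.01 to 0.11) and Esam in 0 of 5 (0.03 to 0.10). Cldn5 (ENSMUSG00000041378, chromosome 16, 18776847 to 18778262, plus strand) had medians of 6.17 CPM in females and 6.29 CPM in males, a difference of 0.08 (SE 0.04, edgeR adjusted p = 0.103) that became 0.09 (adjusted p = 0.0321) with library block as covariate and ran from -0.03 to 0.21 within blocks.

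The secreted products went in opposite directions. Vwf (ENSMUSG00000001930, chromosome 6, 125546774 to 125686679, plus strand), whose product is stored in endothelial granules and binds platelets, ran from 22.9 through 40.3 to 77.0 CPM in females and from 19.8 through 34.9 to 69.02 CPM in males. It was lower in males by a log2 difference of -0.22 (SE 0.03, edgeR adjusted p = 5.22e-15), close in size to the difference of Vegfa with the sign turned, and it passed the test in each of the 5 generations and in 4 of 5 library blocks (-0.27 to -0.16). Egfl7 (ENSMUSG00000026921, chromosome 2, 26580014 to 26593120, plus strand), whose product is laid down in the matrix around vessels, ran from 7.89 through 16.3 to 24.3 CPM in females and from 9.20 through 18.3 to 30.8 CPM in males, with a difference of 0.16 (SE 0.03, edgeR adjusted p = 5.33e-09) that passed in 2 of 5 generations and 2 of 5 blocks (0.08 to 0.30). Egfl7 shares 11.2% of its exon length with neighbouring genes, among them Agpat2 and the microRNA genes Mir126a and Mir126b, so its counts may include reads from those genes. Myh7 shares 13.3% of its exon length with overlapping genes, and its counts may likewise include reads from them.

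**Figure D2:**
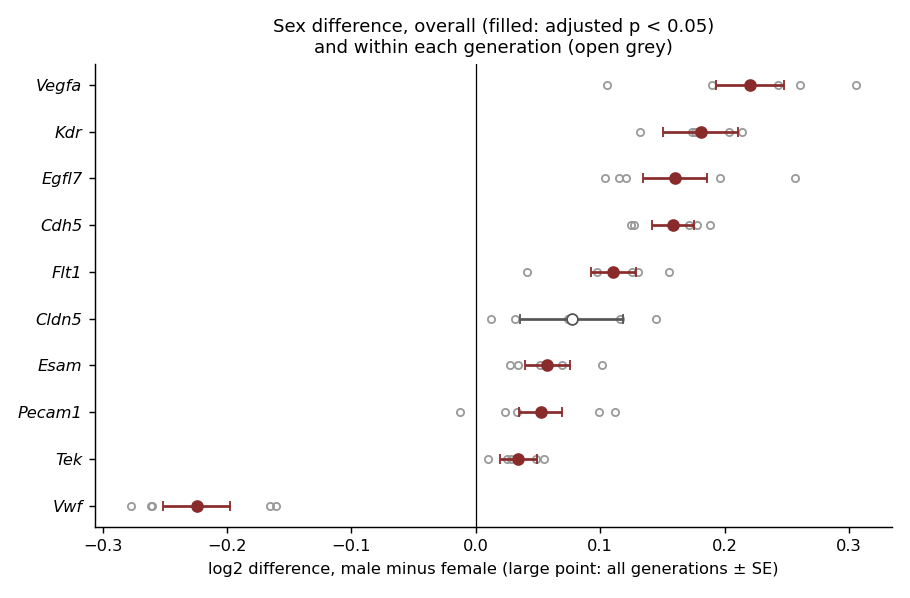
Fitted log2 difference, male minus female, of each gene over all generations (large point, ± SE, filled where the adjusted p is under 0.05) and within each generation (small open points). Vegfa stands highest at 0.22 and Vwf lowest at -0.22, and the 5 values of Cdh5 lie between 0.13 and 0.19.

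Other vessel genes are given beside the 24.4% of all genes called higher and 30.6% called lower in males. Of 25 other endothelial markers, 20 were higher in males and 0 were lower, with a median log2 difference of 0.10, led by the transcription factor genes Sox7 (0.21), Sox18 (0.20) and Tcf15 (0.15) and the receptor gene Tie1 (0.13). Of 12 mural cell genes, which mark the pericytes and smooth muscle around vessels, 10 were higher and 0 lower (median 0.10), with Rgs5 at 0.18, Acta2 at 0.17, Higd1b at 0.13 and Tagln at 0.12. With libraries scaled by total count alone, 13 of the endothelial markers and 7 of the mural genes were called higher and 0 lower, beside 57.4% of all genes called, of which 30.8% were higher, and the median of all genes moved to -0.05. Lymphatic endothelium went the other way, with 4 of 7 markers lower in males and 0 higher, namely the chemokine gene Ccl21a (-0.53), Mmrn1 (-0.39), Pdpn (-0.20) and Reln (-0.13).

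Further ligands and signals, read against the same shares of all genes, split by gene. Of 7 other VEGF ligand and receptor genes, 4 were higher and 1 lower in males, with Pgf, a ligand of FLT1, at 0.43, the co-receptor gene Nrp1 at 0.12, Vegfb at 0.10 and the lymphatic growth factor gene Vegfd at -0.15. Of 17 angiopoietin and Notch pathway genes, 10 were higher and 3 lower, including the tip cell ligand gene Dll4 (0.25), Angpt2 (0.21), Apln (0.20) and the angiogenesis inhibitor gene Thbs1 (-0.22). Of 18 regulators of Vegfa and hypoxia targets, 6 were higher and 7 lower, near the shares of all genes. Car9 (-0.76), an enzyme gene induced by hypoxia, and the coactivator gene Ppargc1b (-0.27) were lower, whereas the coactivator gene Ppargc1a (0.23) and the nuclear receptor gene Esrrg (0.19) were higher. With libraries scaled by total count alone, the 3 lists had 3 higher and 2 lower, 10 higher and 3 lower, and 5 higher and 9 lower, in the same order.

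Other cell types also differed between the sexes, and their counts stand beside the same 24.4% of all genes higher and 30.6% lower in males. Of 9 adipocyte genes, 8 were lower in males (Cfd -1.24, Retn -1.06, Plin1 -0.55) and 1, Lep, was higher (0.55), and their summed level had a median of 837 CPM in females (440 to 2181) and 665.1 CPM in males (374.3 to 1463). Of 9 slow fibre genes, 8 were lower in males, and Myh7 itself had a mean of 1508 ± 516.9 CPM (SD) in females and 981 ± 350 CPM (SD) in males, a log2 difference of -0.62 (SE 0.04, edgeR adjusted p = 2.61e-35). With the Myh7 score as covariate, 8 of the 9 endothelial genes still passed the test, 7 higher and 1 lower, beside 49.1% of all genes. Oxidative mitochondrial genes were higher for 8 of 12 and lower for 0, and fast fibre genes were higher for 6 of 12 and lower for 4. Platelet genes were lower for 3 of the 5 tested (Itga2b -0.24, Itgb3 -0.21, Gp1ba -0.14) and higher for 1 (Pf4 0.09). Fibroblast genes were lower for 6 of 8 and higher for 2, macrophage genes were lower for 2 of 10, and erythroid genes were higher for 3 of 5 (summed medians 128.1 CPM in females and 156.3 CPM in males). The erythroid count was 4 without DO497, 1 without the 8 libraries that stood apart and 1 with total count scaling. The erythroid sex difference varied between generations for Alas2 (fitted range 1.46, edgeR adjusted p = 1.11e-05), Hbb-bs (1.10, 0.00141) and Hbb-bt (1.30, 0.00465), calls that were all lost without DO497 (adjusted p = 0.0648, 0.45 and 0.478). The part of the adipocyte, fibroblast, macrophage, platelet, oxidative mitochondrial, fast fibre and erythroid genes in the sex differences of the 10 genes was not tested.

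With the mean score of the 25 other endothelial markers as covariate, 5 of the 9 endothelial genes were called, 4 higher and 1 lower, near the 52.4% of all genes called in that fit, and the differences of Tek (-0.02), Pecam1 (-0.02) and Esam (-0.01) turned negative.

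Generation and library block touched fewer of the genes. Between generations, Cldn5 and Egfl7 were called (edgeR with sex as covariate, adjusted p = 0.00837 and 0.00561), beside 7.56% of all genes. The mean of Cldn5 was lowest in generation 17 (6.05 ± 1.68 CPM, SD, n = 94) and highest in generation 19 (7.11 ± 2.49 CPM, SD, n = 99), a fitted range of 0.23 on the log2 scale, and Egfl7 ran from 16.3 ± 3.37 CPM in generation 21 (SD, n = 93) to 18.3 ± 3.28 CPM in generation 17 (SD, n = 94), a range of 0.18. Pecam1 had a range of 0.08 (adjusted p = 0.0677) that passed without DO497 (0.0378), without the 5 libraries that went against their sex label (0.0281) and without the 8 that stood apart (0.036). Vegfa did not pass (range 0.14, adjusted p = 0.149).

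The library blocks are 5 runs of consecutive library numbers (91 to 96 libraries each) and the labels do not say what step of preparation, if any, they share. Between blocks, 6 of the 10 genes were called (edgeR with sex and generation as covariates), beside 47.4% of all genes. Cldn5 had the widest range, 0.41 on the log2 scale (adjusted p = 3.89e-09), from a mean of 5.45 ± 1.95 CPM (SD, n = 96) in block 1 to 7.23 ± 2.26 CPM (SD, n = 96) in block 3. Vegfa followed with 0.22 (adjusted p = 6.84e-07), from 212.4 ± 42.5 CPM in block 1 to 244.97 ± 55.1 CPM in block 3, and then Egfl7 with 0.20 (adjusted p = 1.81e-08). Tek, Flt1 and Esam had ranges of 0.10 to 0.11, and Pecam1, Cdh5, Kdr and Vwf were not called.

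A measure of base composition moved with several of the genes. For each library the slope of its residual scores on the GC content of each gene's transcript was taken, called the GC axis here. It correlated with Egfl7 (r = 0.51, rho = 0.40), Cldn5 (r = 0.36, rho = 0.27), Vwf (r = 0.31, rho = 0.21), Esam (r = 0.31, rho = 0.30), Cdh5 (r = 0.19, rho = 0.18) and, negatively, Tek (r = -0.23, rho = -0.15), with adjusted permutation p of 3.3e-05 to 0.00024 over 33 tests (100000 resamples, the smallest raw p they can give being 1e-05). Flt1 had r = -0.12 (adjusted p = 0.0243) but rho = -0.02 (permutation p = 0.615). Kdr (r = 0.01), Pecam1 (r = 0.03) and Vegfa (r = 0.06) did not pass. Within single blocks r ran from 0.16 to 0.64 for Egfl7 and from -0.11 to 0.48 for Cldn5. With the GC axis as covariate the same 9 genes were called for sex, and the block call of Esam was lost (adjusted p = 0.552). A further library measure, the share of counts from mitochondrially encoded genes, passed with 7 of the 10 genes (adjusted permutation p of 3.3e-05 to 0.00459 over the same 33 tests). It went up with Tek (r = 0.26, rho = 0.23), Flt1 (r = 0.20, rho = 0.18) and Kdr (r = 0.14, rho = 0.20) and down with Egfl7 (r = -0.32, rho = -0.19), Vwf (r = -0.28, rho = -0.20), Cldn5 (r = -0.26, rho = -0.18) and Esam (r = -0.18, rho = -0.11). Without the 2 farthest libraries these 7 values were 0.22, 0.17, 0.14, -0.29, -0.26, -0.23 and -0.15. Within single blocks r kept its sign for Tek, Kdr, Vwf and Esam but ran from -0.0019 to 0.39 for Flt1, from -0.53 to 0.18 for Egfl7 and from -0.41 to 0.19 for Cldn5. Vegfa (r = 0.10, adjusted permutation p = 0.0796), Pecam1 and Cdh5 did not pass. The total count of the library passed with 0 of the 10 genes. The share of all genes passing with these measures is not given here, so these counts cannot be read as particular to the 10 genes. The part of these library measures in the relations between genes was tested below for the GC axis and not for the mitochondrial share.

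Across animals most pairs of the 9 endothelial genes went together, with r of very unequal size. After sex and generation were removed from the deposited scores, 27 of the 36 pairs of endothelial genes passed (permutation test of Pearson r, 2-sided, adjusted over 55 pairs), 26 with a positive and 1 with a negative r. The share of all gene pairs that would pass this test is not given here. The median r of the 36 pairs was 0.22 and 33 were above 0, beside a median of -0.0009 and 49.6% above 0 over all pairs of tested genes. The same median was 0.19 for the 25 other endothelial markers, 0.21 for mural genes, 0.66 for adipocyte genes and 0.85 for slow fibre genes.

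The strongest pair was Cdh5 with Kdr (r = 0.64, rho = 0.63, adjusted permutation p = 2.39e-05 and 2.75e-05), and within library blocks r ran from 0.52 to 0.74. Tek went with both of them, at r = 0.47 with Cdh5 (rho = 0.45, blocks 0.27 to 0.62) and r = 0.47 with Kdr (rho = 0.45, blocks 0.30 to 0.60). A second pair was Flt1 with Esam (r = 0.58, rho = 0.59, blocks 0.49 to 0.73) and another was Cldn5 with Egfl7 (r = 0.58, rho = 0.54, blocks 0.40 to 0.66), all with the same adjusted p as the first. Leaving out the 2 libraries farthest from the median of the first gene left these 5 values at 0.63, 0.45, 0.46, 0.57 and 0.56. Pecam1 went moderately with Cdh5 (r = 0.40, rho = 0.37), Esam (r = 0.36, rho = 0.32) and Flt1 (r = 0.32, rho = 0.27), and Vwf had no r above 0.26 with any of the other endothelial genes.

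For the VEGF receptor genes Kdr and Flt1 the relation depended on the scaling. On the deposited scores their r was 0.03 (permutation p = 0.55, rho = -0.03 with p = 0.514), and within library blocks it ran from -0.24 to 0.12. Kdr with Esam had r = -0.07 (permutation p = 0.145, rho = -0.07), and Flt1 with Cldn5 was the 1 negative pair called (r = -0.14, rho = -0.15, adjusted permutation p = 0.00299 and 0.00192, blocks -0.22 to -0.02). Holding the GC axis equal left Kdr with Flt1 at 0.03, raised Flt1 with Esam to 0.65 and lowered Cldn5 with Egfl7 to 0.50. On log2 CPM scaled by total count alone, 35 of the 36 endothelial pairs passed, all with a positive r and a median of 0.33. No value over all gene pairs is given for this scaling, so the rise cannot be read as particular to these genes. With this scaling Kdr with Flt1 passed (r = 0.15, adjusted permutation p = 0.00269), as did Kdr with Esam (r = 0.10, 0.0288), and Flt1 with Cldn5 did not (r = -0.03, 0.584). With TMM-scaled log2 CPM, Kdr with Flt1 had r = 0.03 (adjusted permutation p = 0.508) and Flt1 with Cldn5 r = -0.14 (0.00238). Flt1 with Cldn5 passed in males alone (r = -0.22, adjusted permutation p = 0.00143) but not in females alone (r = -0.08, 0.248). This difference was not tested. In 4 of the 5 blocks taken alone no negative pair passed. In block 3, 1 negative pair passed, and the lowest r there was that of Kdr with Esam (-0.28).

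**Figure D3:**
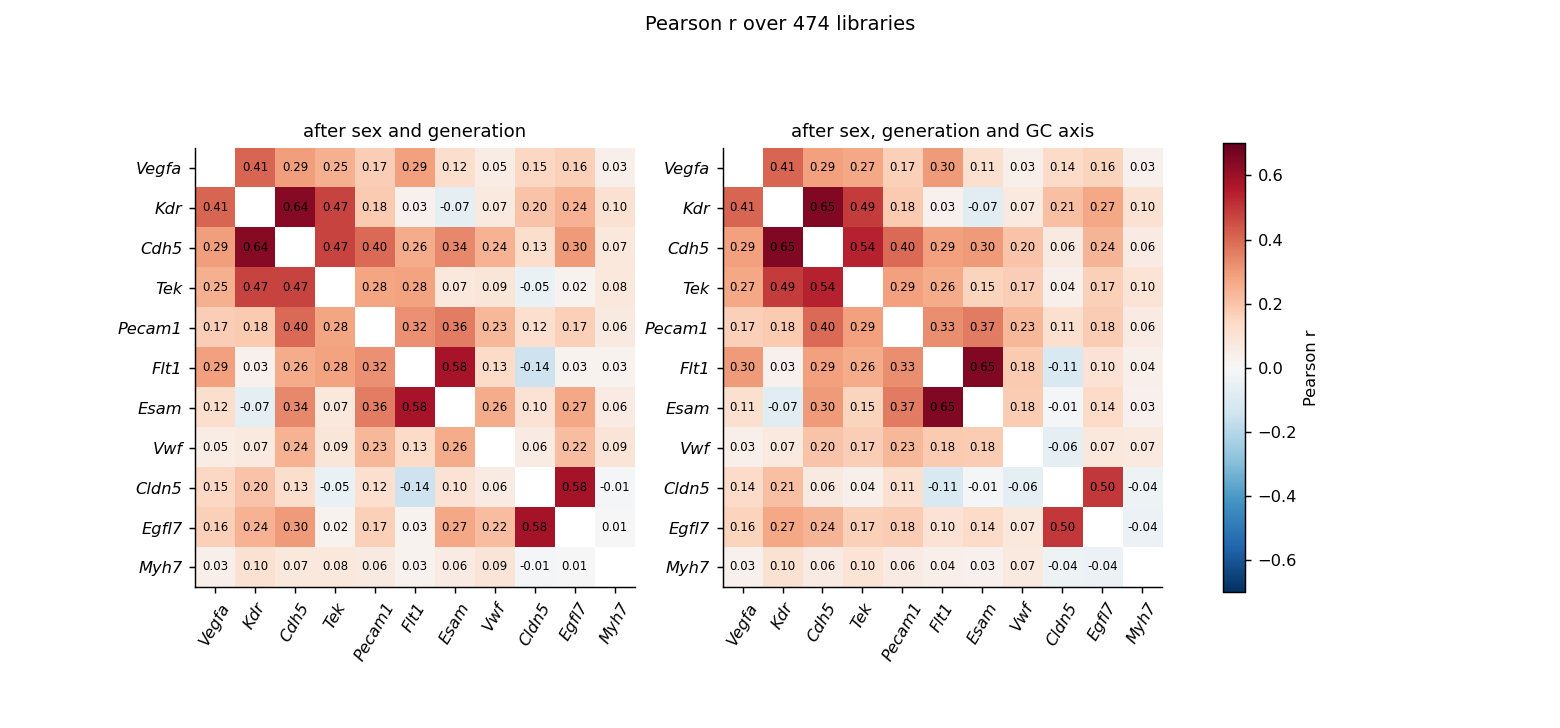
Pearson r between the residual scores of each pair of the 10 genes and Myh7 over all libraries, after sex and generation (left) and after the GC axis as well (right), with red for positive and blue for negative values. The darkest cells are Cdh5 with Kdr (0.64 on the left), Flt1 with Esam (0.58) and Cldn5 with Egfl7 (0.58), and the Myh7 row is pale throughout.

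Over all libraries Vegfa went with 8 of the 9 endothelial genes by r, most closely with its receptor gene Kdr. In smaller sets of libraries, 8 passed in females alone, 5 in males alone and 2, 5, 4, 5 and 3 in blocks 1 to 5. The lowest r was that of Vwf in males (-0.03) and in block 1 (-0.23). The share of all genes passing with Vegfa by r is not given here. The r of Vegfa and Kdr was 0.41 (rho = 0.38, adjusted permutation p = 2.39e-05 and 2.75e-05), 0.38 without the 2 farthest libraries, 0.39 without DO497, 0.36 in females and 0.46 in males, and 0.30 to 0.50 within library blocks. Among all tested genes, 99.96% had a lower r with Vegfa. Cdh5 (r = 0.29, rho = 0.28), Flt1 (r = 0.29, rho = 0.25) and Tek (r = 0.25, rho = 0.25) came next, all with adjusted permutation p = 2.39e-05 for r and positive in each of the 5 blocks. Pecam1 had r = 0.17 (rho = 0.18, adjusted p = 0.000402), Egfl7 0.16 (rho = 0.18, 0.000727), Cldn5 0.15 (rho = 0.14, 0.00245) and Esam 0.12 (rho = 0.11, 0.0114), all by permutation, and of these only Pecam1 kept a positive r in each block. For Vwf r was 0.05 (permutation p = 0.276, rho = 0.05 with p = 0.275). Without the 2 farthest libraries these 8 values other than Kdr were 0.29, 0.25, 0.24, 0.16, 0.18, 0.16, 0.11 and 0.07 in the same order.

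The slope in the count fit gave the same picture in units of expression. Per SD of the Vegfa score, Kdr was higher by 0.13 on the log2 scale (SE 0.01, edgeR adjusted p = 3.49e-17), Cldn5 by 0.07 (SE 0.02, 0.0102), Flt1 by 0.06 (SE 0.01, 3.98e-09), Cdh5 by 0.05 (SE 0.01, 1.03e-08), Egfl7 by 0.05 (SE 0.01, 0.0036), Tek by 0.04 (SE 0.01, 1.02e-06), Pecam1 by 0.03 (SE 0.01, 0.00265) and Esam by 0.02 (SE 0.01, 0.0456). For Vwf the slope was 0.01 (SE 0.01, edgeR adjusted p = 0.527). These 8 of 9 genes stand beside 16.4% of all genes called, 7.33% upward and 9.04% downward (of these calls 44.8% were upward, and 51.3% without the 8 libraries that stood apart). The Esam call was lost without DO497 (adjusted p = 0.0922), without the 8 libraries that stood apart (0.0784), without the 5 that went against their sex label (0.0658), with DESeq2 size factors (0.0534) and with the GC axis as covariate (0.0747), and both the Esam and the Cldn5 calls were lost with library block as covariate (0.155 and 0.162). No slope on Vegfa was called as different between the sexes for the 9 genes by edgeR (0 of 9, with 1, Flt1, at an unadjusted p under 0.05 and an adjusted p of 0.42, beside 1.5% of all genes called, 1.42% with a higher and 0.0850% with a lower slope in males).

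**Figure D4:**
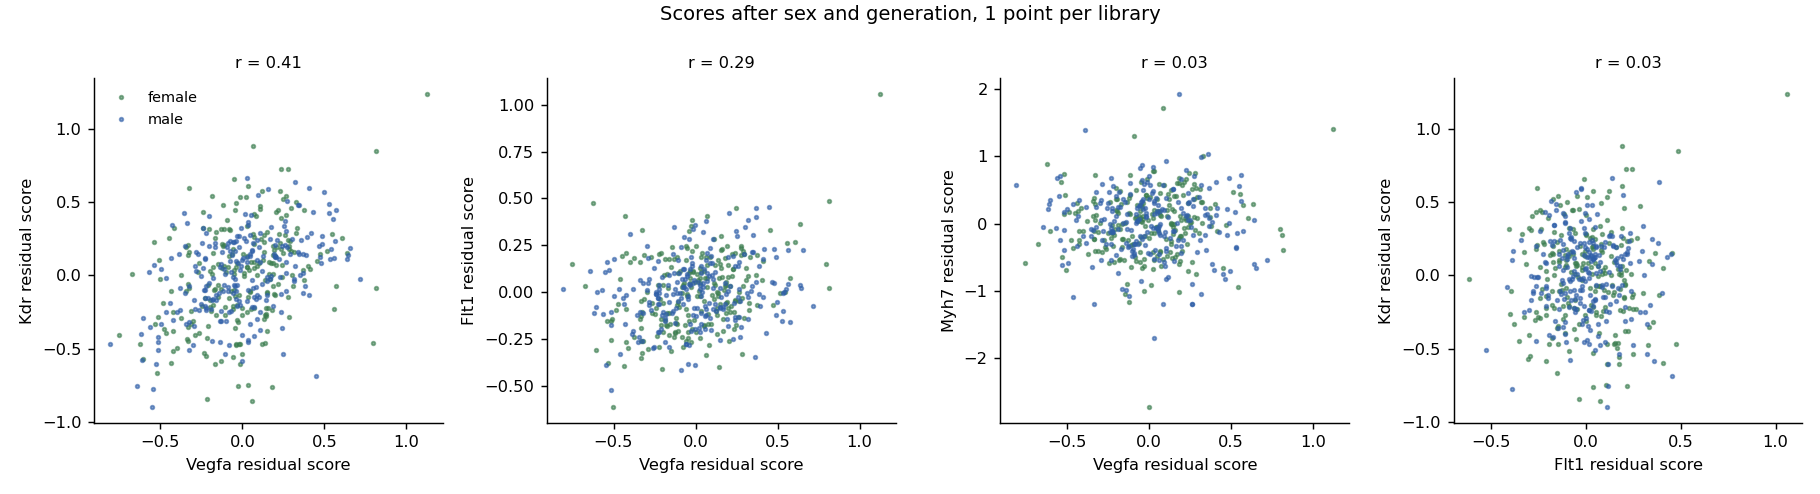
Residual scores after sex and generation, 1 point per library (green female, blue male), for Kdr, Flt1 and Myh7 against Vegfa and for Kdr against Flt1. Kdr rises with Vegfa (r = 0.41), Myh7 with Vegfa and Kdr with Flt1 both have r = 0.03 on these scores, and the point at the upper right of each panel is DO497.

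Myh7 went with few of the 10 genes on the deposited scores, and with more on another scaling. Its r with Vegfa was 0.03 (permutation p = 0.46, rho = 0.05 with p = 0.297, r = 0.02 without the 2 farthest libraries), 0.12 in females and -0.04 in males, and -0.05 to 0.14 within library blocks. Of the 10 genes, 1 passed with Myh7, namely Kdr (r = 0.10, rho = 0.10, adjusted permutation p = 0.0352), and this was lost without DO497 (r = 0.08, adjusted p = 0.111), the library second highest in Myh7. With the GC axis held equal Tek passed as well (r = 0.10, adjusted permutation p = 0.0496). In the count fit 0 of the 10 genes had a slope on Myh7 called by edgeR, with 2 (Kdr and Vwf) at an unadjusted p under 0.05 and 0 called by limma, beside 6.48% of all genes called, 3.56% upward and 2.92% downward (of these calls 55% were upward, and 68.2% with total count scaling). On log2 CPM scaled by total count alone, 7 of the 10 genes passed with Myh7 by r, all positive, namely Kdr (r = 0.17, adjusted permutation p = 0.000825), Cdh5 (0.15, 0.00157), Pecam1 (0.14, 0.0023), Vwf (0.14, 0.00395), Tek (0.13, 0.00269), Esam (0.12, 0.0105) and Vegfa (0.09, 0.0429). On TMM-scaled log2 CPM 1 passed, again Kdr. The share of all genes passing with Myh7 by r is not given here for any scaling. In the edgeR fit with total count scaling, 0 of the 9 endothelial genes had a slope on Myh7 called, beside 5.93% of all genes. On the deposited scores 6 passed in females alone, led by Tek (r = 0.20, adjusted permutation p = 0.00338), and 0 in males alone, where the difference between the sexes was not tested. The r of the endothelial mean with Myh7 was 0.24 in females and -0.04 in males, likewise without a test of the difference.

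With Myh7 held equal the slopes on Vegfa hardly moved. Kdr stayed at 0.13 (SE 0.01, edgeR adjusted p = 6.87e-17), and 7 of the 9 endothelial genes were called, beside 16.1% of all genes (7.19% upward and 8.93% downward), with Esam at an adjusted p of 0.051. As a contrast, all 8 other tested slow fibre genes went up with Myh7, with a median slope of 0.41 per SD, while 0 of 25 other endothelial markers, 1 of 12 mural genes and 1 of 7 lymphatic markers did, beside 3.56% of all genes upward. That lymphatic marker was Prox1 (0.23), a transcription factor gene that slow muscle fibres also express. Of the 18 regulators and hypoxia targets, 5 went up with Myh7 (Egln3 0.12, Esrrb 0.11, Esrrg 0.10, Slc2a1 0.07 and Bnip3 0.05) and 0 down, as did 1 of the 7 other VEGF genes, Vegfd (0.09, edgeR adjusted p = 0.000224), and 0 of the 17 angiopoietin and Notch genes. Erythroid genes went up for 4 of 5, but for 0 without DO497.

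Most of the other endothelial markers also had a positive slope on Vegfa. Of 25 other endothelial markers, 22 had a positive slope on Vegfa that passed and 0 a negative one (7.33% of all genes upward and 9.04% downward), with a median of 0.05 per SD beside -0.005 over all genes, led by Tcf15 (0.15), the co-receptor gene Eng (0.11), Sox18 (0.10) and Podxl (0.09). Gpihbp1, Ramp2 and S1pr1, named because they were the only 3 not called, did not pass. With library block as covariate 19 of the 25 passed and without DO497 21 did, beside 16.7% of all genes in each of these fits. Mural genes passed upward for 6 of 12 (Kcnj8 0.08, Acta2 0.05, Tagln 0.04, Rgs5 0.04), lymphatic markers for 1 of 7 (Flt4, 0.06) with 1 downward (Ccl21a, -0.16), and fibroblast genes for 0 of 8.

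Signalling partners of Vegfa are also set beside the 7.33% of all genes upward and 9.04% downward. Of the 7 other VEGF ligands, receptors and co-receptors, 5 passed upward and 0 downward, with Vegfc at 0.08, its receptor gene Flt4 at 0.06, Vegfb at 0.06 and Nrp2 at 0.05. Of the 17 angiopoietin and Notch genes, 9 passed upward and 0 downward, among them Apln (0.16), Thbs1 (0.12), Angpt2 (0.09) and the Notch target gene Hey1 (0.09). Among 18 regulators of Vegfa and hypoxia targets, 11 passed upward, with the coactivator gene Ppargc1a at 0.20 (SE 0.03, edgeR adjusted p = 2.41e-10), the prolyl hydroxylase gene Egln3 at 0.10, Esrrb at 0.08 and the hypoxia factor gene Hif1a at 0.08. The 1 that passed downward was Vhl (-0.04), whose product marks hypoxia factors for degradation and which is named after its value was seen.

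Lists of muscle, blood and other cell types are read against the same 7.33% of all genes upward and 9.04% downward. Of 12 oxidative mitochondrial genes 9 passed upward (median 0.02, Acadvl and Etfdh at 0.03), and of 12 fast fibre genes 7 passed downward (Actn3 -0.05, Mybpc2 -0.04) and 2 upward, the myosins Myh1 (0.06) and Myh2 (0.04). Slow fibre genes passed upward for 3 of 9, with Csrp3 at 0.13 and Atp2a2 and Myl3 at 0.06. Adipocyte genes passed downward for 5 of 9 (Cfd -0.20, Plin1 -0.13, Retn -0.12, Adipoq -0.11) and macrophage genes for 2 of 10 (Lyz2 -0.08, Cd163 -0.06). Erythroid genes had the steepest slopes of any list, with 4 of 5 upward (Alas2 0.26, Hbb-bs 0.24, Hbb-bt 0.23, Hba-a2 0.21) and a median of 0.23 that was 0.13 without DO497. The slopes of these 4 were called as different between the sexes, with a male minus female difference of -0.30 for Alas2 (edgeR adjusted p = 0.00546), -0.30 for Hba-a2 (0.00592), -0.28 for Hbb-bt (0.027) and -0.20 for Hbb-bs (0.0398). Without the female library DO497 these differences were -0.10, -0.17, -0.11 and -0.05, and 0 of the 4 were called (adjusted p = 0.327 to 0.88), while the 4 slopes over both sexes were still called. Platelet genes passed for 0 of the 5 tested. With the adipocyte, macrophage, fibroblast and erythroid mean scores as covariates, 7 of the 9 endothelial genes were still called for Vegfa, beside 10.6% of all genes in that fit, and the Esam call was lost (adjusted p = 0.199).

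**Figure D5:**
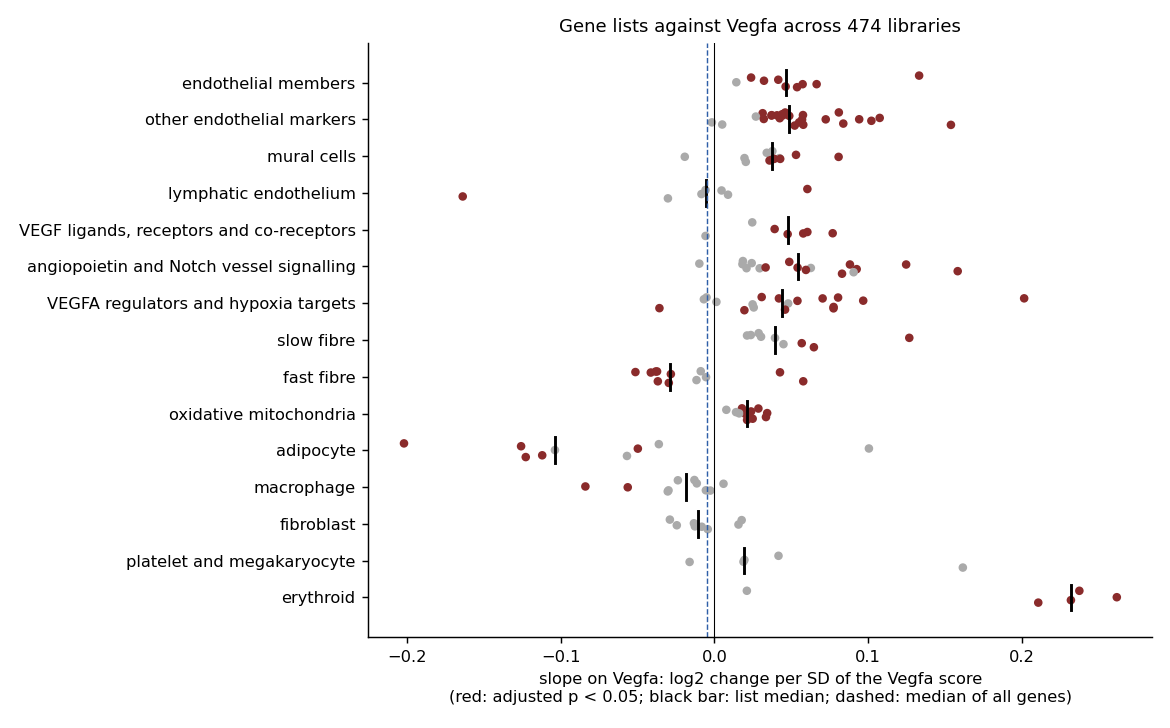
Slope of each gene on the Vegfa score (log2 change per SD of the score) in each list, with 1 point per gene, red where the adjusted p is under 0.05, a black bar at the list median and a dashed line at the median of all genes (-0.005). The endothelial lists lie almost wholly above 0 with medians of 0.05, the adipocyte list lies below 0 with 1 exception, and the erythroid median is 0.23.

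The genes outside the 10 whose residual scores were most like that of Vegfa were mainly not endothelial markers. Over all libraries the highest r was that of Pfkfb2 (r = 0.49, rho = 0.45, blocks 0.40 to 0.64), which encodes an enzyme that sets the level of a glycolytic activator. It was followed by Perm1, a muscle gene downstream of PGC-1 coactivators (r = 0.43), Eng (0.42), Tmem251 (0.42), the hexokinase gene Hk2 (0.42), the thrombin receptor gene F2r (0.42), 2310057M21Rik (0.40), Gm13889 (0.40), the unfolded protein sensor gene Ern1 (0.39) and Trak2 (0.39). Eng had the widest spread between blocks, 0.04 to 0.54. The most negative values were those of Sort1 (-0.30), Edc3 (-0.29), Celf2 (-0.28), Trp53inp1 (-0.28) and Tmem50a (-0.28). Over all genes the 5th and 95th percentiles of r with Vegfa were -0.14 and 0.15. All these values are descriptions over the same libraries.

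The mean score of the 9 endothelial genes had a different neighbourhood. Its 10 most alike genes were Arap3 (r = 0.63), Tie1 (0.61), Arhgef15 (0.61), Eng (0.61), Ushbp1 (0.59), Pcdh1 (0.59), Itpkb (0.56), the venous receptor gene Ephb4 (0.56), Fgd5 (0.55) and Notch1 (0.55), against a 95th percentile of 0.21 over all genes, and Eng was the only gene among the 10 most alike of both Vegfa and this mean. The mean had r = 0.38 with Vegfa (0.18 to 0.43 within blocks), 0.53 with the mural mean, 0.28 with the erythroid mean, 0.24 with the oxidative mitochondrial mean, -0.24 with the fast fibre mean, 0.27 with the GC axis and 0.10 with Myh7. These are given without a test.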

How the data were processed

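Skeletal muscle RNA of 474 mice was selected for polyA, given a spike-in mix and sequenced as read pairs. The authors joined the read files, mapped the mates singly against transcripts pooled from the founder strains and deposited expected counts per gene (EMASE in GBRS, GRCm38), so that a fragment can count 2 times. They first removed genes with expression in too few samples. Their versions and any use of strand are not given in the sources used here. A second table deposited by the authors holds DESeq2's variance stabilised score, whose scale is near log2. Of the expected counts, 68.6% were whole.

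Expected counts were rounded and fitted with edgeR 4.0.16 in R 4.3.3 (TMM factors 0.871 to 1.29, filterByExpr with a minimum count of 10, quasi-likelihood F-test, Benjamini-Hochberg over all genes tested, threshold 0.05), with sex and generation as covariates of each other. The study also used wave as a covariate, which the labels do not hold, and kinship as a random effect in its eQTL mapping. Kinship was not fitted here, so the animals were treated as independent. CPM were taken on the TMM-scaled total, without the prior count of 2 used for log2 CPM. Correlations were computed on residual scores after sex and generation with Python 3.11.15, numpy 2.4.6 and scipy 1.17.1, with 100000 permutations, 2-sided (10000 in alternatives). DESeq2 1.42.0 and limma 3.58.1 were alternatives. The fits and correlations were tested on simulated data. Named genes were all 10 genes and Myh7, the 10 genes most like Vegfa and most like the endothelial mean among those of at least 1 CPM (and the 5 most unlike Vegfa), and up to 4 called genes of largest fitted value per list. The genes and the 15 lists were chosen with earlier results of these data known. The GC axis, the omission of DO497 and that of the 8 libraries that stood apart were chosen after seeing the data. P-values measure the spread between animals.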

Additional observations from a re-analysis of the deposited data

How the results depend on the processing

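In the count fits, the number of genes called for generation was 2 or 3 of the 10 by setting. The counts for generation, Vegfa, Vegfa at equal Myh7 and Myh7 stayed within 1.5 times the reported count under the alternatives run. Among these were other scalings, no filter on low counts, limma on the deposited scores and the removal of libraries. DESeq2 was run for sex and generation only. The block fit was repeated only with the GC axis as covariate, where its count also stayed within that factor. The count of genes called for sex, 9 over all libraries, fell in smaller sets of libraries to 5 in generation 17, 3 in generation 18 and 2 in generation 23, and to 4, 2, 2 and 4 in library blocks 1 to 4. The 36 called pairs became 13, 21 and 22 in blocks 1, 2 and 5. These sets hold fewer libraries. Over all libraries the count for sex was 6 with total count scaling and 6 with the other endothelial markers as covariate. Total count scaling also raised the 36 called pairs to 51 and the genes passing with Myh7 by r from 1 to 7, turned Kdr with Flt1 into a call and ended that of Flt1 with Cldn5, and it made Vwf with Vegfa pass (r = 0.12, adjusted permutation p = 0.0105).

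Sex differences that turned negative were Cldn5 in block 3 (-0.031) and block 4 (-0.013), Pecam1 in generation 23 (-0.013), Tek in block 2 (-0.023) and, with the other endothelial markers as covariate, Esam (-0.012), Pecam1 (-0.016) and Tek (-0.016). The slope of Egfl7 on Myh7 turned to 0.0015 with total count, 0.0024 with block as covariate and 0.0013 with limma, and that of Flt1 to -0.00091 without DO497. Correlations with Myh7 that changed sign were Cldn5 on log2 CPM (0.013 with TMM, 0.071 with total count) and by rank (0.0024), Pecam1 (-0.0098), Flt1 (-0.023) and Egfl7 (-0.044) by rank, Egfl7 with the GC axis (-0.041), and Flt1 (-0.0082) and Egfl7 (-0.0056) without DO497. With sex and generation left in the scores, r with Myh7 was -0.011 for Pecam1, -0.16 for Cdh5, -0.077 for Kdr, -0.12 for Flt1, -0.0035 for Tek, -0.025 for Esam, -0.13 for Egfl7 and -0.17 for Vegfa, and Vwf with Vegfa had -0.090. In that setting 5 of the 10 genes passed with Myh7, with adjusted permutation p = 0.000589 for Cdh5, 0.000917 for Vegfa, 0.0075 for Egfl7, 0.0129 for Flt1 and 0.000212 for Vwf, whose r was 0.27. The cause was not tested.

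No paired analysis was possible because each animal gave 1 library and the animal numbers are not shared between groups. Wave could not be fitted, the reading of the title number as generation is an assumption, and the labels name no technical step for the blocks. Whole muscle RNA gives no count of vessels or of cells.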
